A study of Mus musculus with 48 samples.

Results

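The 31 genes described here mark cortical GABAergic interneurons, their transmitter and their developmental lineages. They are a list of gene names, drawn up with earlier results of these data known, and all 31 were found among the 48795 genes of the deposited tables. Their RNA was measured in the cerebral cortex of 48 mice of 6 months, listed under a C57BL/6 background, with 24 females and 24 males. The 6 genotype groups were wild type (WT, n = 7), Q140 (n = 8), Msh3+/- (n = 9), Q140 x Msh3+/- (n = 8), Msh3-/- (n = 8) and Q140 x Msh3-/- (n = 8). The sexes were balanced at 4 and 4 except in WT, with 3 females, and in Msh3+/-, with 5. Q140 mice carry a knock-in allele of huntingtin (Htt) whose CAG repeat is expanded, and the labels give them as heterozygous. Msh3 encodes a DNA mismatch repair protein, and the labels do not describe how its alleles were altered. No treatment and no cell-type-specific driver is listed, and no label says whether mice of a group share a litter.

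Library totals lay between 35946572 and 64479357 counts, with a median of 46849793. Levels below are CPM, counts scaled to library size, unless FPKM, which also divides by gene length, is named. Msh3 RNA was higher, not lower, in mice labelled Msh3+/- or Msh3-/-: 21.8 to 25.9 CPM with 0 altered alleles (n = 15), 61.2 to 77.4 with 1 (n = 17) and 99.1 to 125 with 2 (n = 16). The Msh3 labels are therefore used as names of 1 and 2 altered alleles, not as loss of RNA. Htt did not separate the same classes, with medians from 235 to 240 CPM (lowest to highest mouse 225 to 259), and the tables count both Htt alleles together. The libraries of Msh3+/- male 2, Q140 male 1 and Q140 x Msh3-/- male 4 stood apart on the second principal component. Msh3-/- female 4, WT male 3 and Msh3-/- female 3 carried 1093, 353 and 106 CPM of Ttr, a choroid plexus gene that reached at most 9.17 CPM in any other mouse.

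Interneurons are the inhibitory cells of the cortex and release GABA, which glutamate decarboxylases make and a vesicular transporter loads. In mouse cortex, most parvalbumin and somatostatin cells arise in the medial ganglionic eminence and depend on Lhx6 and Sox6, while Vip, reelin and other serotonin-receptor-bearing cells arise mainly in the caudal ganglionic eminence and carry Prox1, Adarb2 and Htr3a. Several of these genes are not restricted to interneurons: pyramidal cells also express Cck, Calb1 and Cnr1, for example. In bulk tissue, fewer cells of a type and less RNA per cell cannot be told apart.

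All 31 genes passed the filter on low counts, and none was at 0 in any mouse. By length-scaled level, the neuropeptide genes led, and Cck, a peptide gene that pyramidal cells express as well, ranked first with 213 to 302 FPKM (median 248) over the 48 mice. Sst, the somatostatin gene, followed with 164 to 241 FPKM (median 193), and Npy with 103 to 146 (median 122). Pvalb, which encodes parvalbumin, lay at 34.1 to 60.5 FPKM (median 52.2), and Vip at 21.3 to 35 (median 26.4). Cort, the gene of the somatostatin-like peptide cortistatin, had a lower range that was wide for its level, 1.58 to 7.73 FPKM (median 3.35). The peptide genes therefore spanned from the most to a moderately abundant level, and Cort alone of them overlapped the transcription factors.

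Among the genes of GABA synthesis and loading, Gad1 and Gad2, the pair of glutamate decarboxylase genes, stood at medians of 47.1 and 28.9 FPKM, and Slc32a1, the vesicular GABA transporter, at 25.3. The lineage transcription factors were lower: Lhx6 had a mean of 4.95 FPKM, Maf 4.88, Dlx1 4.32, Dlx5 2.33, Sox6 2.13, Dlx2 2.06, Prox1 1.95, Dlx6 1.83 and Nr2f2 1.56. Erbb4, the neuregulin receptor of interneurons, had a mean of 10.4 FPKM, Elfn1, a postsynaptic adhesion protein, 9.51, and Cnr1, the cannabinoid receptor of Cck terminals, 20.6. At the low end, Tacr1 and Chodl, which mark long-range Nos1 interneurons, and Chat, the acetylcholine-synthesizing enzyme of some Vip cells, had means of 0.219, 0.0833 and 0.175 FPKM. Chodl rested on 7 to 24 counts per library and Chat on 8 to 43, so both are imprecise in a single mouse.

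**Figure D1:**
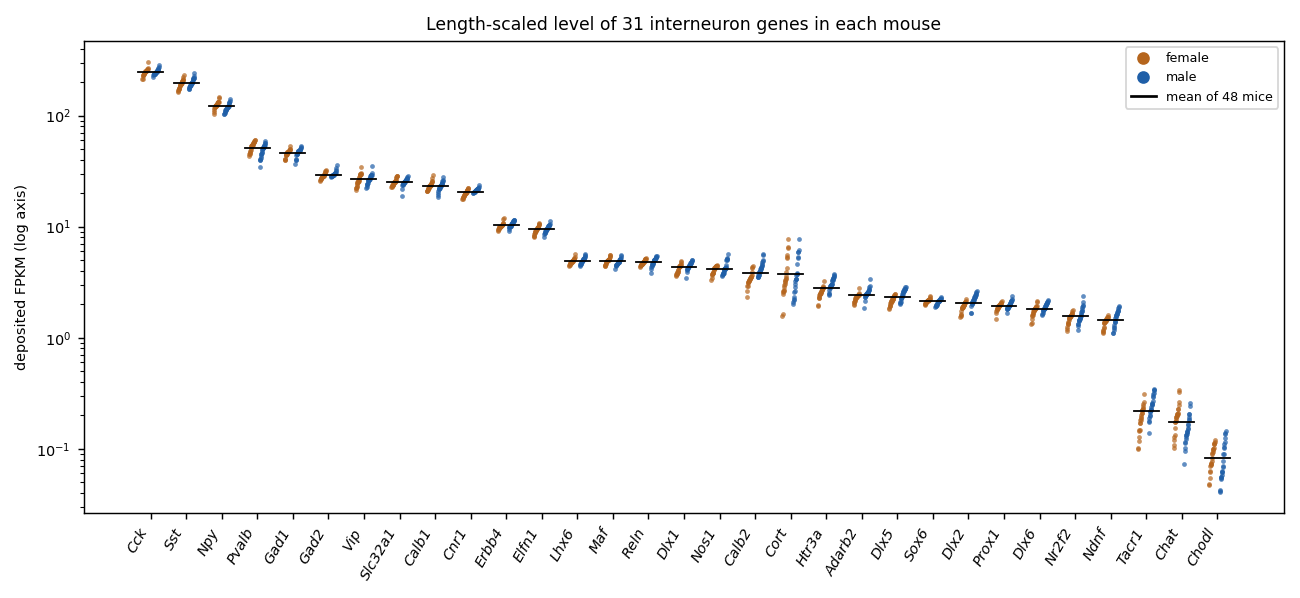
Deposited FPKM (log axis) of each of the 31 genes, ordered by mean, with 1 point per mouse (24 females, 24 males) and a line at the mean of 48 mice. Cck, Sst and Npy lead, Tacr1, Chat and Chodl lie below 1 FPKM in every mouse, and Cort has a wide spread for its level.

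The upstream sequence of Sst is shown because its cyclic AMP response element is the textbook example of that motif. It was read from RefSeq (GRCm38.p6, minus strand, chr16:23890845-23891094, the 250 bases before the transcription start, 5′ to 3′), and capitals mark the element and its half-sites.
Sst: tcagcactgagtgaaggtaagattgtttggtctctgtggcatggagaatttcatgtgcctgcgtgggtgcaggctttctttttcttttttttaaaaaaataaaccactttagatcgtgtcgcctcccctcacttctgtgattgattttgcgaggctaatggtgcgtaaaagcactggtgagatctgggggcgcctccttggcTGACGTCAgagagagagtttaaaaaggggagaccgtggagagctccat
The palindrome TGACGTCA, searched on both strands in windows of 300 bases (250 before to 50 after the start), occurred in 1.85% of 27025 promoters and, among the 24 interneuron genes listed there, in Sst alone. Its half-site TGACG, which the palindrome contains, occurred in 20.9% of all promoters and in 10 of the 24: Cck, Chat, Cort, Dlx2, Gad2, Nos1, Sox6, Sst, Tacr1 and Vip. Not listed were Calb1, Calb2, Htr3a, Ndnf, Maf, Dlx5 and Dlx6.

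Genes differed in how much they varied between mice of 1 genotype and sex. Cort had a biological coefficient of variation of 32.6%, above 95.6% of the 20010 tested genes, followed by Tacr1 (21.1%), Chat (20.8%) and Chodl (20.2%). Sox6, Gad2 and Cnr1 were the steadiest, at 4.99%, 5.4% and 5.53%. Vip (8.8%), Sst (7.72%), Gad1 (7.77%) and Slc32a1 (7.79%) lay near the middle of all genes, and Pvalb was higher at 11.5%.

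The effect of Q140 was asked within each Msh3 genotype and over all carriers. None of the 31 genes was called in any of these comparisons. Called means an adjusted p under 0.05 (Benjamini-Hochberg over 20010 genes) in edgeR's quasi-likelihood test, and the same test supplies every log2 fold change (± standard error) and p below. In Q140 against WT, 0 of 31 were called and 1 had an unadjusted p under 0.05, while 0.01% of all genes were called and 5.48% had such a p. In Q140 x Msh3+/- against Msh3+/-, the counts were 0 and 1, beside 0.015% and 6.2% of all genes. In Q140 x Msh3-/- against Msh3-/-, they were 0 and 2, beside 0% and 6.8%. Over all 24 carriers against 24 non-carriers, they were 0 and 2, beside 0.035% and 5.63%. DESeq2 and limma with voom also called 0 of the 31 genes in each genotype comparison of the report.

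Vip, whose peptide marks interneurons that inhibit other interneurons, had the smallest p of the 31 over all carriers. Its level was 32.8 to 52.5 CPM (median 38.9) in carriers and 34 to 52.4 (median 43.1) in non-carriers, so the groups overlapped over nearly their whole range. The difference was -0.10 ± 0.04 with an adjusted p of 0.732 (95% interval of the log2 change -0.17 to -0.02). It was -0.14 ± 0.07 in Q140 against WT (adjusted p = 0.892) and -0.13 ± 0.06 on Msh3+/- (adjusted p = 0.78). On Msh3-/- it was -0.02 ± 0.06 (adjusted p = 0.963, 95% interval -0.15 to 0.11).

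Erbb4 followed at 0.06 ± 0.02 (adjusted p = 0.805), with 122 to 144 CPM (median 129.7) in carriers and 112 to 147 (median 124.4) in others. Elfn1 (-0.06 ± 0.03, adjusted p = 0.867), Cck (-0.04 ± 0.03, adjusted p = 0.894) and Sst (-0.05 ± 0.03, adjusted p = 0.909) completed the 5 smallest p. On Msh3-/-, the genes with an unadjusted p under 0.05 were Lhx6 (0.11 ± 0.05) and Elfn1 (-0.11 ± 0.05), with adjusted p of 0.691 and 0.728. Over all carriers, 18 of the 31 estimates lay above 0 with a median of 0.02, beside 49.7% of all genes and an all-gene median of -0.0003.

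For the genes of GABA synthesis and loading and for Pvalb, the 95% interval of the carrier difference was -0.02 to 0.07 for Gad2, -0.02 to 0.11 for Gad1, -0.03 to 0.10 for Slc32a1 and -0.05 to 0.15 for Pvalb. The widest belonged to Cort (-0.37 to 0.20), Chodl (-0.35 to 0.19) and Chat (-0.28 to 0.22), so a change of the size seen for Vip would not be detectable there. Of the lists of related genes, none of 14 GABA handling genes, 14 GABA receptor subunits, 12 other parvalbumin-class, 12 other somatostatin-class, 12 Vip- and Lamp5-class or 10 perineuronal net genes was called in carriers.

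**Figure D2:**
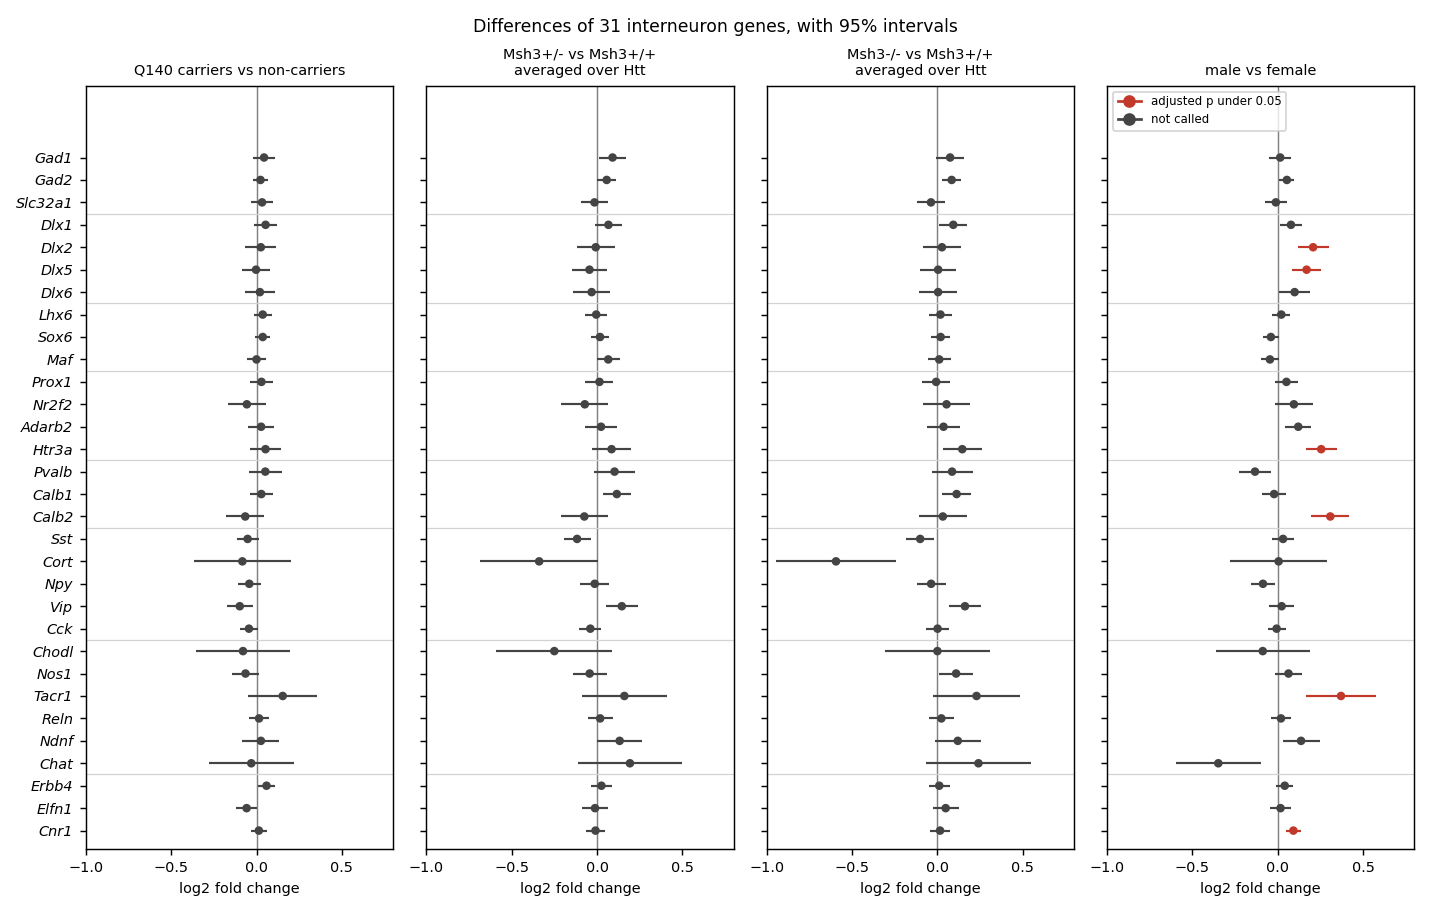
Log2 fold changes (points) with 95% intervals (lines) of the 31 genes, grouped by role, for Q140 carriers, Msh3+/- and Msh3-/- averaged over Htt, and males against females; red marks an adjusted p under 0.05. The 3 genotype panels hold no red gene, Cort lies farthest from 0 in the Msh3-/- panel, and 6 genes are red in the sex panel.

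The Msh3 comparisons asked what 1 or 2 altered alleles change without Q140, with it, and on average over both. None of the 31 genes was called in any of the 6 comparisons. Averaged over Htt, 2 altered alleles gave 0 called and 8 of 31 (25.8%) with such a p, beside 0.085% and 9.27% of all genes. With 1 altered allele, the counts were 0 and 5 (16.1%), beside 0.02% and 8.21%. Msh3-/- against WT gave 0 and 5, beside 0.035% and 5.73%, and Msh3+/- against WT 0 and 5, beside 0.025% and 9.5%. On Q140, Q140 x Msh3-/- against Q140 gave 0 and 1, beside 0.045% and 9.07%, and Q140 x Msh3+/- against Q140 gave 0 and 2, beside 0.02% and 5.14%. These comparisons share their control mice, so their values are not independent of each other.

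Vip had the smallest p in both averaged comparisons, with estimates above 0. It stood at 32.8 to 45.5 CPM (median 37.3) with 0 altered alleles, 35.1 to 52.5 (median 42) with 1 and 37.4 to 47 (median 43.6) with 2. The classes overlapped, with the lowest median in the class without an altered allele. Averaged over Htt, the difference was 0.16 ± 0.05 with 2 altered alleles (adjusted p = 0.224, 95% interval 0.07 to 0.25) and 0.15 ± 0.05 with 1 (adjusted p = 0.432). Within Q140 carriers it was 0.22 ± 0.06 for Q140 x Msh3-/- against Q140 (adjusted p = 0.318) and 0.15 ± 0.06 for Q140 x Msh3+/- (adjusted p = 0.96).

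The somatostatin-related peptide genes had estimates below 0. Cort, the member that varied most, was at 1.79 to 5.26 CPM (median 3.09) with 0 altered alleles, 1.38 to 4.41 (median 2.26) with 1 and 1.07 to 5.29 (median 1.91) with 2. The highest value of the last class came from Q140 x Msh3-/- male 4, whose library stood apart. The average difference with 2 alleles was -0.59 ± 0.18 (adjusted p = 0.251), and without the 3 libraries apart on the second component it was -0.71 (adjusted p = 0.0503). Sst was at 110 to 139 CPM (median 124) with 0 altered alleles, 99.1 to 142 (median 114) with 1 and 103 to 135 (median 114) with 2. Its differences were -0.12 ± 0.04 with 1 altered allele (adjusted p = 0.473) and -0.10 ± 0.04 with 2 (adjusted p = 0.417). All 7 WT mice lay between 124 and 132 CPM of Sst, a narrower range than in any other group.

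Gad2 was at 152 to 180 CPM (median 167) with 0 altered alleles, 156 to 212 (median 170) with 1 and 160 to 191 (median 177) with 2. The difference with 2 was 0.08 ± 0.03 (adjusted p = 0.308). Calb1, the gene of the calcium buffer calbindin, was at 88.3 to 126 CPM (median 108) with 0 altered alleles, 103 to 134 (median 116) with 1 and 101 to 140 (median 115) with 2, and differed by 0.11 ± 0.04 (adjusted p = 0.386). Htr3a, an ionotropic serotonin receptor subunit, had 0.15 ± 0.06 (adjusted p = 0.408). The other members with an unadjusted p under 0.05 at 2 alleles were Dlx1 (0.09 ± 0.04) and Nos1 (0.11 ± 0.05), with adjusted p of 0.468 and 0.487. In that comparison 25 of 31 estimates lay above 0 with a median of 0.03, while 47.4% of all genes did, with a median of -0.004. Pvalb, Lhx6, Sox6, Prox1 and Adarb2 had intervals that included 0 in both averaged comparisons.

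**Figure D3:**
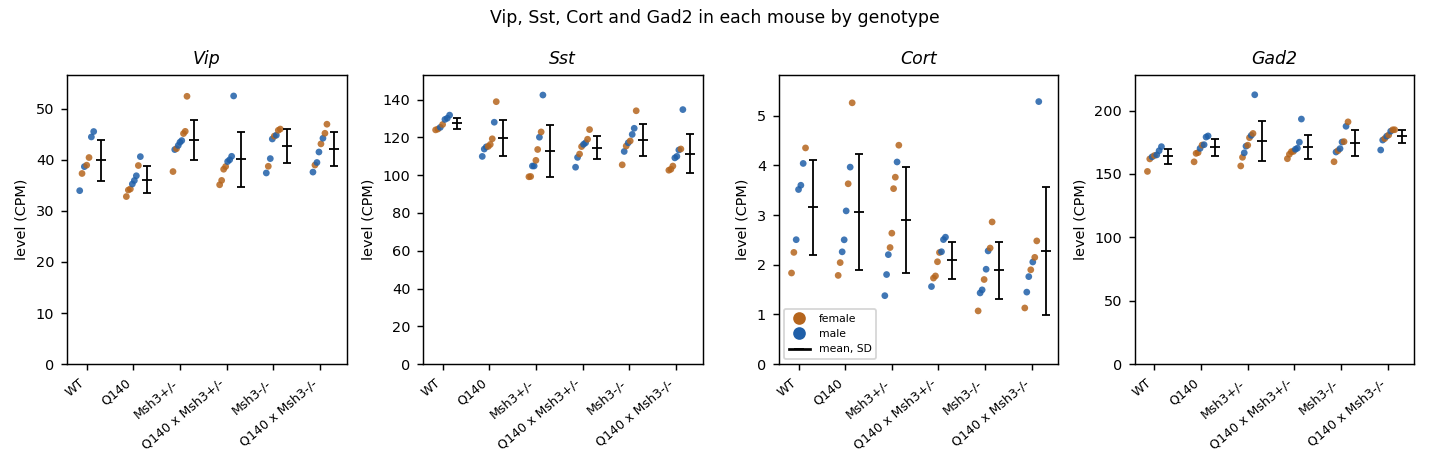
CPM of Vip, Sst, Cort and Gad2 in each mouse by genotype, coloured by sex, with the mean and SD of the group beside the points. Groups overlap for every gene, the 7 WT mice are close together for Sst, and Q140 x Msh3-/- male 4 lies above the rest of its group for Cort.

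Among the related lists, 1 other somatostatin-class gene, Crhbp, was called with 2 altered alleles. Crhbp encodes the binding protein of corticotropin-releasing hormone. It lies on chromosome 13 at 95431371 to 95444924 (GRCm38), 3.08 Mb from Msh3. Its level was 12.6 to 19.1 CPM (median 14.1) with 0 altered alleles and 15.8 to 19.6 (median 17.4) with 2, a difference of 0.27 ± 0.05 (adjusted p = 0.00151). The adjusted p was 0.0617 for Q140 x Msh3-/- against Q140 and 0.536 for Msh3-/- against WT. The nearest member to Msh3 on that chromosome was Adarb2, 83.4 Mb away, and on chromosome 5 Reln, Nos1 and Elfn1 lie 12.4, 82.9 and 105 Mb from Htt.

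Whether Q140 acted differently by Msh3 genotype or by sex was tested as a difference of effects. No member was called or had an unadjusted p under 0.05 in any of the 3 tests. For Msh3+/- against Msh3+/+, 0% of all genes were called and 6.43% had such a p, and for Msh3-/- against Msh3+/+ 0% and 5.35%. For males against females, 0% were called and 4.48% had such a p. The largest fold inside any member's 95% interval was 2.19, 2.06 and 1.86 in the 3 tests.

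More genes were called between the sexes than between any genotypes. Of the 31 genes, 6 were called, all higher in males: Htr3a, Calb2, Dlx2, Dlx5, Cnr1 and Tacr1. That is 19.4% of the members, beside 5.56% of all genes, of which 2.73% were higher and 2.83% lower in males. An unadjusted p under 0.05 was found for 14 members (45.2%) and 20.7% of all genes. In all, 22 of 31 estimates lay above 0, with a median of 0.03, beside 51.3% of all genes and a median of 0.002.

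Among the lineage factors, the Dlx genes, homeobox genes that specify GABAergic neurons of the forebrain, all had estimates above 0. Dlx2 (chromosome 2, 71543408 to 71546754, minus strand) was at 4.38 to 6.33 CPM (median 5.52) in females and 4.81 to 7.52 (median 6.29) in males. The ranges overlapped, 12 males lay above the highest female, and the male mean was higher in 6 of 6 genotypes. The difference was 0.21 ± 0.04, or 1.15-fold (95% interval 1.08 to 1.23, adjusted p = 0.0033). Dlx5 (chromosome 6, 6877805 to 6882085, minus strand) was at 4.05 to 5.71 CPM (median 4.98) in females and 4.63 to 6.53 (median 5.73) in males. Its difference was 0.17 ± 0.04 (adjusted p = 0.0106), with 12 males above the highest female and a higher male mean in 5 of 6 genotypes, the exception being the Q140 group. Dlx1 (0.08 ± 0.03, adjusted p = 0.153) and Dlx6 (0.10 ± 0.04, adjusted p = 0.191) were not called. Dlx1 was called without the 3 libraries apart on the second component (0.10, adjusted p = 0.034). It was also called without the Q140 x Msh3-/- mice (0.11, adjusted p = 0.0347).

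Of the genes of the caudal lineage, Htr3a (chromosome 9, 48899213 to 48911099, minus strand) had the smallest p. Females had 4.07 to 6.57 CPM (median 5.41) and males 5.06 to 7.69 (median 6.34), with 10 males above the highest female. The difference was 0.25 ± 0.05, or 1.19-fold (95% interval 1.12 to 1.27, adjusted p = 0.000375), and the male mean was higher in 6 of 6 genotypes. Adarb2, an RNA-binding protein of the adenosine deaminase family, had 0.12 ± 0.04 (adjusted p = 0.0505). It was called in several alternatives but not in all, among them DESeq2 (adjusted p = 0.0337) and limma with voom (adjusted p = 0.00943). Nr2f2 (0.09 ± 0.06, adjusted p = 0.341) and Prox1 (0.05 ± 0.03, adjusted p = 0.407) were not called. The medial-lineage genes Lhx6, Sox6 and Maf had estimates of 0.02, -0.04 and -0.05, none of them called.

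Calb2, the calretinin gene of many Vip cells, had 4.15 to 7.77 CPM (median 5.83) in females and 6.04 to 9.72 (median 7.25) in males. All 24 males lay above the female median and 15 females below the lowest male. The difference was 0.31 ± 0.06, or 1.24-fold (95% interval 1.14 to 1.34, adjusted p = 0.000447), and within genotypes the sexes did not overlap in 3 of 6. Calb2 lies on chromosome 8, 110137502 to 110168210, minus strand. The other calcium-binding genes had estimates on the other side: Pvalb was at 45.5 to 64.1 CPM (median 56.6) in females and 35.2 to 60.6 (median 52.1) in males, a difference of -0.13 ± 0.05 (adjusted p = 0.0873). Calb1 had -0.02 ± 0.03.

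Tacr1, the substance P receptor, was the largest of the called differences and the least precise. It stood at 0.648 to 2.02 CPM (median 1.27) in females and 0.91 to 2.21 (median 1.57) in males, with 4 males above the highest female. The difference was 0.37 ± 0.10, or 1.29-fold (95% interval 1.12 to 1.49, adjusted p = 0.0213), with a higher male mean in 5 of 6 genotypes. Tacr1 lies on chromosome 6, 82402334 to 82560104, plus strand. Nos1, which the same long-range cells carry, and Chodl were not called (0.06 ± 0.04 and -0.09 ± 0.14). Chat had -0.35 ± 0.12 (adjusted p = 0.0809), with 0.284 to 0.957 CPM (median 0.545) in females and 0.203 to 0.727 (median 0.402) in males. Without the 3 libraries rich in choroid plexus RNA it was called (-0.40, adjusted p = 0.0474).

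Cnr1 was the smallest of the called differences and one of the steadiest genes. Females had 114 to 143 CPM (median 129) and males 131 to 153 (median 137), so the lowest male lay above 14 of the 24 females and all 24 males above the female median. The difference was 0.09 ± 0.02, or 1.07-fold (95% interval of the log2 change 0.05 to 0.14, adjusted p = 0.0114). Cnr1 lies on chromosome 4, 33924593 to 33948831, plus strand. The peptide genes other than Npy had estimates near 0: Sst 0.03 ± 0.03, Vip 0.02 ± 0.04, Cck -0.01 ± 0.03 and Cort 0.00 ± 0.14. Npy had -0.09 ± 0.03 (adjusted p = 0.121), with a lower male mean in 6 of 6 genotypes. Gad1, Gad2 and Slc32a1 had 0.01 ± 0.03, 0.05 ± 0.02 and -0.01 ± 0.03, none of them called.

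**Figure D4:**
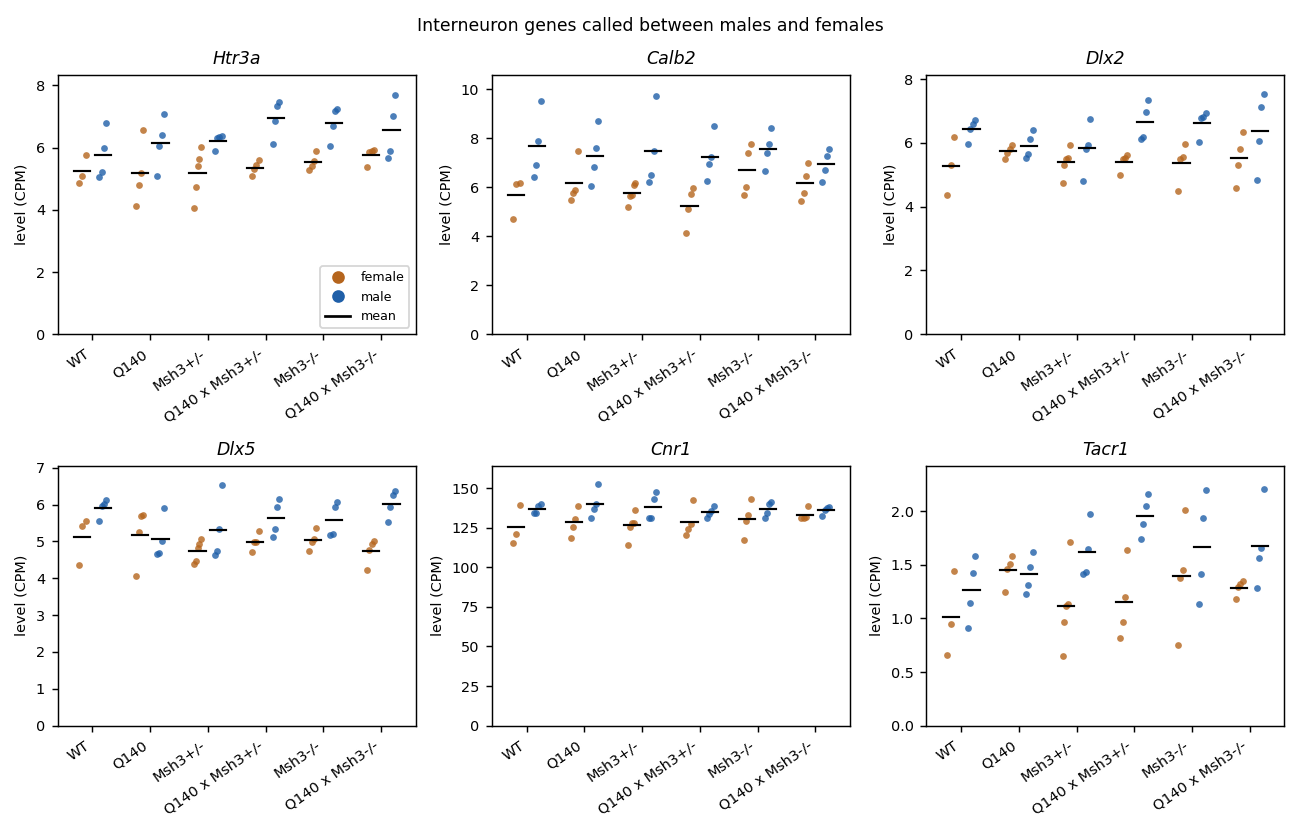
CPM of the 6 genes called between the sexes, with 1 point per mouse by genotype and sex and a line at the mean of each sex. Male means lie above female means in all 6 genotypes for Htr3a, Calb2, Dlx2 and Cnr1, and in 5 of 6 for Dlx5 and Tacr1.

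RefSeq lists upstream sequence for Dlx2, Tacr1 and Cnr1 of the 6 called genes. They are shown because these members were higher in the same sex, so that hormone response elements were searched for (GRCm38.p6, 250 bases before the start, 5′ to 3′). Dlx2 is chr2:71546755-71547004, minus strand, Tacr1 chr6:82402225-82402474, plus strand, and Cnr1 chr4:33924014-33924263, plus strand, the most upstream of 3 listed starts. The starts are those of RefSeq, and for Tacr1 and Cnr1 they differ from the GENCODE positions given above. The windows of Tacr1 and Sst lie partly inside the gene as GENCODE places it. Capitals mark half-sites of the elements searched, on either strand.
Dlx2: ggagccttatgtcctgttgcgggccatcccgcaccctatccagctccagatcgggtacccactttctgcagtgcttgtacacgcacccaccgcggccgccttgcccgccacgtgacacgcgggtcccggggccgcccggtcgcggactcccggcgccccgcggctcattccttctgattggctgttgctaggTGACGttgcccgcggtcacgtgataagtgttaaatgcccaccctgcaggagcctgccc
Tacr1: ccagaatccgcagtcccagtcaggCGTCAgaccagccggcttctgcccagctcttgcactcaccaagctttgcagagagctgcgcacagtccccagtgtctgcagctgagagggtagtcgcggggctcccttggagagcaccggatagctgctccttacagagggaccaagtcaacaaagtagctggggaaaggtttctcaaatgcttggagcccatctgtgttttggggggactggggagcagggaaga
Cnr1: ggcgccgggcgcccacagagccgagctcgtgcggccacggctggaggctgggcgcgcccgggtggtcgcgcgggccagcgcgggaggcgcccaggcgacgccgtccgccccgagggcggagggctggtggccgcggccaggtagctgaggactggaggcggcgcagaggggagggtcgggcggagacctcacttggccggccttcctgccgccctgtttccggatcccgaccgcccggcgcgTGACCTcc
The full estrogen response element, GGTCANNNTGACC, was found in 0 of the 24 listed members and 0.0666% of all promoters. The full androgen response element, written as the half-site AGAACA, 3 free bases and its reverse complement, was found in 0 members and 0.0037% of all promoters. The estrogen half-site AGGTCA was found in 16% of all promoters and in Cnr1, Dlx1 and Elfn1, and AGAACA in 19% and in Cort and Lhx6. In Dlx2 and Tacr1 the capitals are cyclic AMP half-sites. These counts describe letters in a short window and not binding.

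Genes of related lists also differed between the sexes. Of 12 other somatostatin-class genes, Pdyn (0.23 ± 0.04, adjusted p = 4.76e-05) and Grin3a (0.13 ± 0.03, adjusted p = 0.00749) were higher in males. Of 12 other parvalbumin-class genes, the presynaptic Syt2 (-0.17 ± 0.05, adjusted p = 0.0322) and Lgi2 (-0.11 ± 0.03, adjusted p = 0.0288) were lower. Of 10 perineuronal net genes, the matrix that ensheaths parvalbumin cells, Hapln4, Tnr and Acan were lower, by -0.13, -0.10 and -0.18. Among the GABA handling genes 1 of 14 was called, Abat (-0.08 ± 0.02), and 0 of the 14 GABA receptor subunits (edgeR) was. Dlg4 was the 1 called of 9 genes of ErbB4 ligands and partners, at -0.07 ± 0.02.

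Some markers of neighbouring tissue also differed between the sexes, part of them higher and part lower in males, where 5.56% of all genes were called. Cdhr1, an olfactory bulb gene, was at 1.15 to 2.79 CPM (median 1.97) in females and 1.18 to 7.33 (median 2.51) in males, a difference of 0.65 ± 0.14 (adjusted p = 0.00356). It was the 1 called of 5 tested genes of an olfactory bulb list chosen after the sex difference was seen, whose summed level ranged from 4.54 to 6.53 CPM in females and 4.69 to 10.8 in males. Of that list, Eomes was at 0 in 22 mice. Of 18 striatal projection neuron genes, Drd1 (0.23 ± 0.07) and Gng7 were higher and Rasd2 lower. Their summed level was 700 to 881 CPM (median 755) in females and 693 to 819 (median 743) in males. Of 7 tested thalamic and hypothalamic genes, Calb2 itself was higher and Slc17a6 lower (-0.15 ± 0.03). All 7 tested choroid plexus genes had estimates below 0, none of them called. With the log2 level of Cdhr1 as a covariate, chosen after the data were seen, 3 members stayed called, Calb2 (0.24 ± 0.06), Dlx5 (0.18 ± 0.05) and Htr3a (0.16 ± 0.05). The others then had adjusted p of 0.0587 (Dlx2), 0.0756 (Cnr1) and 0.359 (Tacr1, 0.18 ± 0.11). The part of other tissue markers in the sex differences was not tested beyond this.

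No call among the 6 was lost when any 1 of the 48 mice was left out, with 6 to 8 members called. Leaving out whole genotype groups did end calls. Tacr1 had an adjusted p of 0.0828 without Msh3+/-, 0.125 without Q140 x Msh3+/- and 0.0618 without Q140 x Msh3-/- mice. Dlx5 had 0.0503 without Msh3-/- and 0.091 without Q140 x Msh3-/- mice, and Cnr1 had 0.0546 without Msh3+/- mice. Htr3a, Calb2 and Dlx2 kept their calls in each of these 6 fits. In the 24 mice without Q140 alone, 3 members were called (Htr3a, Calb2 and Dlx2) among 704 genes, and in the 24 with Q140 alone 0 were (edgeR) among 22 genes. The estimates were 0.32 ± 0.08 without and 0.29 ± 0.08 with Q140 for Calb2, and 0.24 ± 0.06 and 0.27 ± 0.07 for Htr3a. The test of that difference is the Q140-by-sex test above. An F-test of sex effects between all 6 genotypes called 0 genes. An unadjusted p under 0.05 was found for 1 of 31 members, Maf, and for 970 of 20010 genes. Mice whose column names share a stem were always of 1 sex, so the sexes are compared between stems and never within a stem. A random block for the stem, fitted in limma with voom, allowed for likeness of mice sharing a stem (consensus correlation 0.10). It kept all 6 calls, but it cannot tell sex apart from anything else that differs between male and female stems. The columns of the well address held 2 to 5 females each, and with them as a factor all 6 calls were kept too.

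How the genes varied together across mice was examined on log2 CPM after genotype and sex were removed, for 14 pairs (two-sided permutation test, 100000 resamples, Benjamini-Hochberg over the pairs). Gad1 covaried with Gad2, Slc32a1 and Pvalb, while Gad2 had lower r with Slc32a1 (0.24) and Pvalb (0.28), pairs that were not tested. Gad1 and Pvalb had r = 0.72 and Gad1 and Gad2 r = 0.69, with rho of 0.70 and 0.71, and both had p = 1e-05, the smallest these permutations can give (adjusted p = 4.67e-05). Gad1 and Slc32a1 had r = 0.63 and rho = 0.49. Without the 2 mice farthest from the median of Gad1 these became 0.68, 0.65 and 0.51, and within the 6 columns of the well address r was above 0 in 6 of 6 for each pair. Vip and Calb2 had r = 0.49 and rho = 0.44 (p = 0.00049, adjusted p = 0.00171), 0.44 without 2 mice, and were above 0 in 6 of 6 columns, from 0.14 to 0.85.

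For other pairs that share a class or a locus no relation was detected, or it did not hold in every check. Sst and Npy, which many somatostatin cells co-express, had r = 0.12 (p = 0.416), Sst and Lhx6 0.01 (p = 0.941) and Sst and Pvalb -0.11 (p = 0.465). Dlx5 and Dlx6, neighbours on chromosome 6, had r = 0.11 (p = 0.476). Dlx1 and Dlx2, neighbours on chromosome 2, had r = 0.45 (p = 0.00137, adjusted p = 0.00384). Their rho gave adjusted p = 0.176, and r fell to 0.28 without the 2 mice farthest from the median of Dlx1 (adjusted p = 0.149). After the column of the well address was removed, r was 0.51 (adjusted p = 0.0007). Within the columns it ran from -0.69 to 0.93. Between Adora2a, a striatal gene, and Gad1, Gad2, Dlx6 and Chat, r lay from -0.22 to 0.24, with adjusted p of at least 0.228.

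Over all 465 pairs of the 31 genes, r had a median of 0.09 and a range of -0.67 to 0.72, and 30 pairs were above 0.5. The next highest were Nos1 and Elfn1 (0.66), Adarb2 and Ndnf (0.66) and Reln and Ndnf (0.66), the latter of which mark layer 1 neurogliaform cells. The lowest values were those of Cort with Dlx1 (-0.67) and Gad1 (-0.64), of Pvalb with Nr2f2 (-0.57) and of Cort with Adarb2 (-0.55). Cort also had values above 0, the highest with Chodl (0.44) and Sst (0.28). The points are the same 48 libraries in each pair, so depth and library quality are shared, and these values are descriptions.

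**Figure D5:**
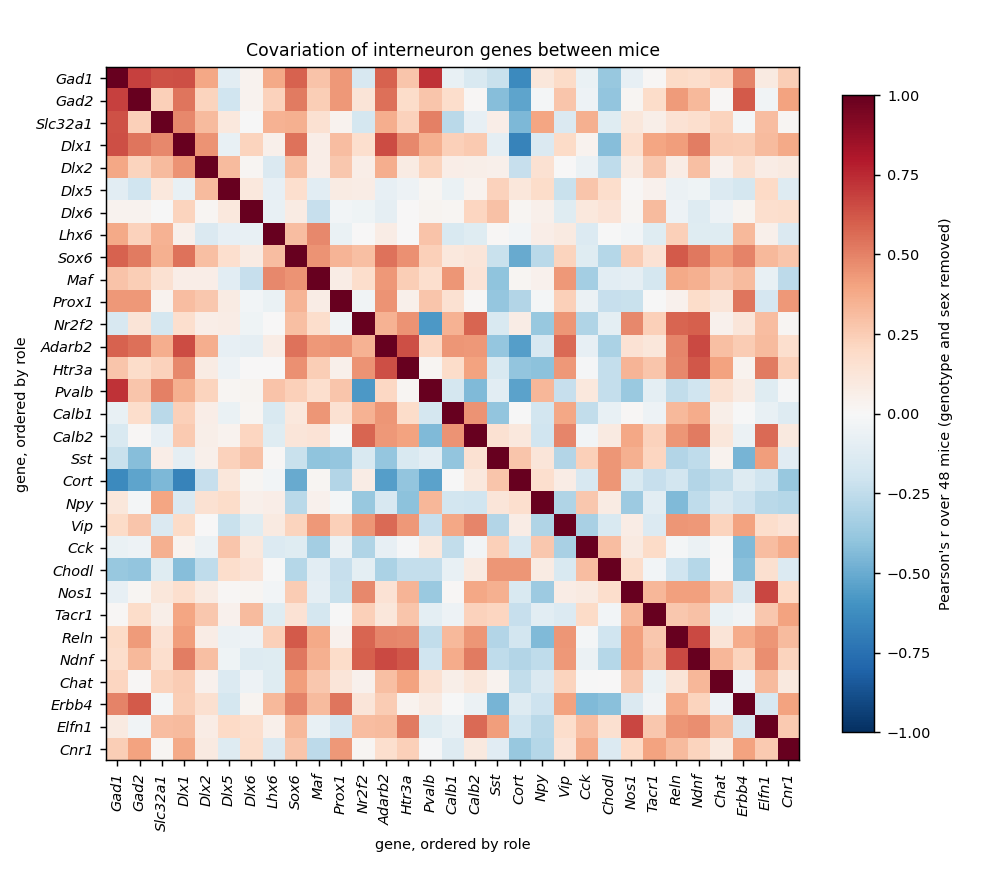
Pearson's r between each pair of the 31 genes over 48 mice, on log2 CPM after genotype and sex were removed, ordered by role; red is above 0 and blue below. Gad1 is red against Gad2, Slc32a1 and Pvalb, and Gad2 is paler against Slc32a1 and Pvalb. Adarb2, Reln and Ndnf form another red set, and Cort has a blue row against Gad1 and Dlx1.

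The genes most like a member, by r over the 48 mice among 15244 genes of at least 1 CPM on average, were listed for Gad1, Pvalb, Sst and Vip. Syt2, a synaptotagmin of fast-spiking terminals, was the nearest to both Gad1 (0.85) and Pvalb (0.87). Gad1 was followed by Cerk (0.85), Cplx1 (0.83), Kcnab3 (0.83) and Nacc2 (0.81), and Pvalb by Lynx1 (0.87), Kcng4 (0.85), Nefh (0.83) and Fndc5 (0.83). Sst had weaker neighbours: Igsf21 (0.70), Gpx3 (0.66), Nxph3 (0.64), Olig1 (0.64) and Ptpru (0.64). Those of Vip were Magi3 (0.65), Igf1 (0.64), Ptprg (0.58), Adarb2 (0.57) and Ildr2 (0.57). For Cort and Calb2, added after their values were seen, the nearest were Moxd1 (0.80), Bex1 (0.78), Plagl1 (0.70), Khdrbs1 (0.70) and Penk (0.69), and Arpp21 (0.74), Nptxr (0.72), Otof (0.71), Camk2d (0.69) and Krt77 (0.68).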

How the data were processed

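Per the labels' protocols, RNA of the cortex was isolated by Qiagen RNeasy and sequenced from Illumina TruSeq stranded libraries. HTSeq 0.12.3, SAMtools 1.10 and STAR 2.7.5c are listed in the submitters' processing notes, with GRCm38 (mm10) as build. The annotation release and the strand setting of the counting are not given in the sources used here, and 14 of the 31 genes overlap a gene on the other strand. The authors deposited raw counts per gene, which were tested, and FPKM, used for levels between genes.

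edgeR 4.0.16 (R 4.3.3) removed 28785 low genes, kept 99.9625% of counts and tested 20010 genes by its quasi-likelihood test. TMM scaling, genotype and sex entered 1 fit over all 48 mice, with Benjamini-Hochberg adjustment and a threshold of 0.05. limma 3.58.1 and DESeq2 1.42.0 served as alternatives. Alternatives also covered scaling, filters, the FPKM pseudocount (0.1 or 1), blocks, the well column, and mice, libraries or groups left out. The test was also run on simulated counts, drawn independently for each gene and library, so disturbances shared by genes of a real library were not covered. The p-values of the group comparisons set each difference against the spread between these mice.

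The members and lists were chosen with earlier results of these data known. Named are all called members, otherwise the 5 with the smallest p, and called genes of the other lists. Gene positions are from GENCODE M21 (GRCm38).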

Additional observations from a re-analysis of the deposited data

Results flagged for a closer look

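In 22 of the 186 combinations of gene and genotype, 1 mouse lay far from the rest of its group in CPM, by Dixon's criterion at the 95% level. Chance flags about 1 in 20 such groups, or 9.3 here. The flags concerned 17 genes and 14 mice.

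Q140 x Msh3-/- male 4, 1 of the 3 libraries apart on the second component, was low in Gad1 (284, next mouse 363), Dlx1 (18.8, next 23.6) and Ndnf (11.3, next 14.4) and high in Cort (5.29, next 2.48). Msh3+/- male 2, another of these libraries, was high in Calb2 (9.72, next 7.47). Q140 x Msh3+/- male 2 was high in Gad2 (193, next 175), Vip (52.5, next 40.7) and Adarb2 (32.1, next 25.5). Q140 x Msh3-/- male 1 was high in Sst (135, next 114), Nos1 (62.3, next 49.4) and Tacr1 (2.21, next 1.66).

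WT female 2 was low in Dlx5 (4.35, next 5.42) and Adarb2 (20.4, next 22.4). Gad2 was high in Msh3+/- male 4 (212, next 182), and Slc32a1 in Msh3-/- male 1 (79.2, next 71.9). Cck was high in Q140 male 4 (196, next 175) and in Msh3-/- female 3 (207, next 179), whose library held choroid plexus RNA. Calb1 was high in Q140 x Msh3-/- female 1 (140, next 119), Dlx5 in Msh3+/- male 3 (6.53, next 5.34) and Prox1 in WT male 2 (18.7, next 16.3). Dlx6 was low in Msh3-/- female 2 (3.14, next 4.24) and Prox1 in Msh3-/- female 1 (12.5, next 15.3).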

How the results depend on the processing

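In the 13 genotype comparisons, the count of members called was 0 by edgeR and in all 167 alternative counts, DESeq2 and limma included. Among these were fits without the 3 libraries apart on the second component and without the 3 rich in choroid plexus RNA. Single mice and whole groups were left out only for the sex comparison. The count was also 0 with the replicate block. Replicate numbers do not pair the mice: residuals of same-numbered mice had a mean r of -0.031 over 115 pairs, 2 of them above 0.1, and those of other mice -0.023 over 364. Over the settings the adjusted p ranged from 0.0884 to 0.494 for Vip and from 0.0503 to 0.509 for Cort with 2 altered Msh3 alleles.

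Between the sexes, 6 members were called, and 6 to 8 when each mouse in turn was left out. The count was 3 in mice without Q140, 0 in mice with Q140 (edgeR) and 3 with Cdhr1 as a covariate. The fits split by Q140 used fewer mice. With Cdhr1, the estimates of Htr3a (0.16 ± 0.05), Calb2 (0.24 ± 0.06) and Dlx2 (0.17 ± 0.05) were smaller than in the main fit. So were those of Cnr1 (0.08 ± 0.03) and Tacr1 (0.18 ± 0.11), while that of Dlx5 (0.18 ± 0.05) was not. The cause of these changes was not tested. Over 20 alternatives, Calb2 and Htr3a each lost their call in 1, Dlx2 in 2, Dlx5 and Cnr1 in 4 and Tacr1 in 6. Ndnf, not called in the main fit, was called higher in males by limma with voom (0.16, adjusted p = 0.0398). All genes called ranged from 877 to 1326 over the mice left out. Other filters gave 752 (none) and 1242 (at least 1 CPM in 7 mice), against 1112. The r of Sst and Pvalb turned from -0.11 to 0.0553 without 2 mice. Depth limits Chodl, Chat and Tacr1 most.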
